A study of Mus musculus with 6 samples.

Results

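The myosin light chains are the small subunits that wrap around the neck of each myosin head, and Mylk2 is the kinase that phosphorylates the regulatory ones in skeletal muscle. Of the 13226 genes in the table of read counts, 9 were taken by their symbols: the regulatory light chains Mylpf, Myl2 and Myl9, the essential light chains Myl1, Myl3, Myl4, Myl6 and Myl6b, and the kinase Mylk2. All 9 had a row, and all 9 were among the 13118 genes that passed the filter on low counts. RNA-sequencing was performed on whole tibialis anterior (TA) muscles, a fast limb muscle, of male C57BL/6 mice. The muscles were injected at 8 weeks of age and excised 7 days later. The Yap-shRNA group (n = 3 muscles) received AAV6:Yap-shRNA, an adeno-associated viral vector carrying a short hairpin RNA against Yap, the transcriptional co-activator of the Hippo pathway. The control group (n = 3 muscles) is an empty vector by its titles and AAV6:LacZ-shRNA by its vector field, and is called control here. The plasmids behind the vectors carried the CMV promoter, which is active in many cell types, and whole muscle holds vessels, connective tissue and immune cells beside the fibres. The description of the treatment places the control and the treated muscle of a pair in the contralateral limbs of an animal, but no label ties a replicate number to an animal. The p-values therefore measure the spread between these muscles.

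Each sarcomeric myosin heavy chain binds a regulatory and an essential light chain. Calcium and calmodulin activate Mylk2, which phosphorylates the regulatory chain and so raises the force of a contraction that follows soon after another. Fast fibres use Mylpf and Myl1, whereas slow fibres and the heart ventricle use Myl2 and Myl3. Myl4 is the essential chain of embryonic muscle and the heart atrium, Myl9 is the regulatory chain of smooth muscle, and Myl6 is the essential chain of smooth muscle and non-muscle cells. Yap acts on genes through the Tead transcription factors, which bind a short sequence called the MCAT element.

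To show where such letters stand in these genes, the MCAT motif CATTCC was searched on both strands of RefSeq promoter windows (GRCm38.p6; 250 bases before to 50 after a transcription start). Windows were found for 8 members (10 windows), and Mylk2 had none. The motif occurred 3 times, in 2 of the 10 windows, those of Myl1 and Myl3, against 14.7% of 32851 windows of all genes. Both windows of Myl2 lie before the GENCODE locus given for it below and do not cover the start of that locus. The CArG element, bound by the serum response factor of smooth and striated muscle, occurred in windows of Myl3, Myl6 and Myl9, against 1.63% of all windows. Among windows of genes in the table of read counts the shares were 1.38% for CArG and 12.3% for MCAT. The E-box and MEF2 motifs were searched as well. MEF2 occurred in no window of a member (3.19% of all windows). An E-box occurred for each member with a window but Myl4 (72.3% of all windows). The MCAT matches of Myl1 and Myl3 are shown because of their relation to Tead factors, and the CArG matches because Myl9 and Myl6 are light chains of smooth muscle. Each is read on the strand of its gene with the motif in capitals, and GGAATG is CATTCC read on the opposite strand. The matches are descriptions of letters and are not shown to be bound.
Myl1, MCAT, at -80 from the start, chr1:66945121-66945146, minus strand: agtctgagccGGAATGccacccccct
Myl3, MCAT, at -177 from the start, chr9:110763491-110763516, plus strand: ggtgactgggGGAATGgagcacactc
Myl3, MCAT, at -149 from the start, chr9:110763519-110763544, plus strand: ctcccccaccCATTCCtgggcttgaa
Myl3, CArG, at -85 from the start, chr9:110763583-110763612, plus strand: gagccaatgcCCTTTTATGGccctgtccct
Myl9, CArG, at -161 from the start, chr2:156775293-156775322, plus strand: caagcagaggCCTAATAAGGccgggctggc
Myl6, CArG, at -50 from the start, chr10:128493040-128493069, minus strand: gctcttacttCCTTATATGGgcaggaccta

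Libraries held 11987167 to 12710393 counts, of which the 9 genes took 1.49 to 1.91%. Counts were scaled to CPM (counts scaled to a common library size) with edgeR's TMM factors. Yap1, the targeted gene, stood at 71.2, 65.3 and 68.4 CPM in the control muscles and at 32.0, 23.9 and 39.5 CPM in the Yap-shRNA muscles. It was at 46.5% of control, with groups that did not overlap (log2 fold change -1.10, SE 0.16, quasi-likelihood adjusted p = 0.32 with edgeR). Without control 1 and Yap-shRNA 3, described next, the same test called Yap1 (log2 fold change -1.26, adjusted p = 0.0389) among 4 genes. With all 6 muscles that test called 0 of 13118 genes at an adjusted p under 0.05 (0.00%), and 210 (1.60%) had an unadjusted p under 0.05. DESeq2 called 5 genes (0.0378%) and edgeR's likelihood ratio test also called 5 (0.0381%), with Yap1 among both and none of the 9 genes here in either. The skeletal muscle markers (Acta1, Ckm, Myh4, Myh1, Tnnt3 and Des) summed to 110313 to 132321 CPM in a muscle. The libraries labelled control 1 and Yap-shRNA 3 stood apart from the rest. The 5 tendon markers measured (Tnmd, Scx, Thbs4, Comp and Fmod) summed to 639.3 and 529.3 CPM in these muscles, against 126.1 to 173.7 CPM in the other 4, and the 6 fibroblast markers to 2559 and 2971 CPM, against 1255 to 1506 CPM. Values without both muscles are given beside each member.

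The light chain RNA of these muscles was almost wholly of the fast kind. Levels were compared between genes as RPKM, the CPM per kilobase of each gene's principal transcript in GENCODE release M21. In control muscles Mylpf was highest, at 15460 ± 283.3 RPKM (SD, n = 3), followed by Myl1 at 7297 ± 547.3, Mylk2 at 357.5 ± 21.3, Myl3 at 60.5 ± 5.61 and Myl9 at 47.8 RPKM. Myl6 at 29.7, Myl4 at 18.4, Myl6b at 8.94 and Myl2 at 2.25 RPKM closed the order. The mean levels stood in the same order in Yap-shRNA muscles. Most neighbours in it were further apart than the range over 3 muscles, except Myl3 with Myl9 and Myl6 with Myl4 in control muscles and Myl4 with Myl6b after Yap-shRNA. The step from Mylpf to Myl1 was 2.12-fold in control and 2.07-fold after Yap-shRNA, and that from Myl1 to Mylk2 was 20.4-fold and 18.7-fold.

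**Figure D1:**
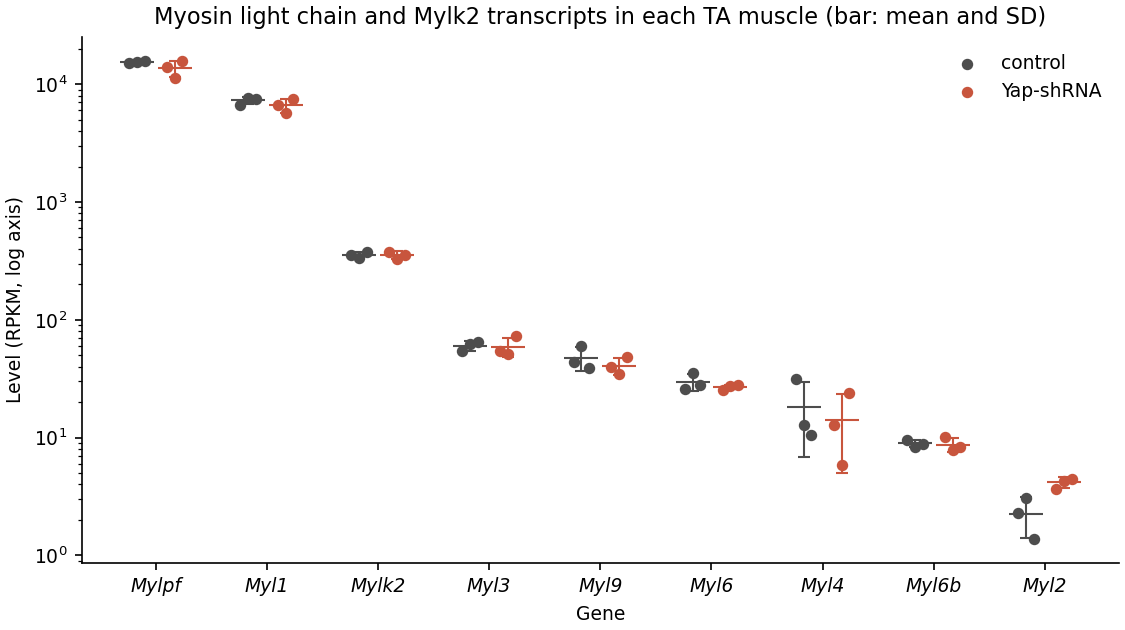
Level of each light chain gene and of Mylk2 in every TA muscle, in RPKM on a log axis. Points are muscles (grey control, red Yap-shRNA), and the horizontal line and bar are the mean and SD of 3 muscles. The levels span from 1.38 RPKM for Myl2 to 15786 RPKM for Mylpf, and Myl2 is the gene whose groups lie apart.

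Per length, Mylpf made up 99.12% ± 0.125 (SD, n = 3) of the regulatory chain RNA in control muscles and 98.96% ± 0.0967 after Yap-shRNA. The rest of that pool was Myl12a at 0.453% and 0.607%, Myl9 at 0.307% and 0.294%, and Myl10, Myl12b and Myl2 at lower shares. Myl1 made up 98.41% ± 0.17 (SD, n = 3) of the essential chain RNA in control muscles and 98.39% ± 0.104 after Yap-shRNA. Myl3 followed at 0.816% and 0.876%.

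None of the 9 genes passed the adjusted threshold, and the quasi-likelihood test of edgeR gave each an adjusted p of 1.00. With Yap-shRNA, 8 of the 9 had a log2 fold change below 0, where 51.0% of all genes tested did. Their median was -0.138, against -0.002 over all genes. This count rested on 1 muscle: without Yap-shRNA 2 it was 4 of 9, with a median of 0.002. The median was -0.056 without control 2, and without control 1 and Yap-shRNA 3 it was -0.27, with 7 of 9 below 0. That last setting was chosen after seeing the data, and Yap-shRNA 2 was 1 of the 2 Yap-shRNA muscles it left. In it 4 of the 9 had an unadjusted p under 0.05 (Mylpf, Myl1 and Myl3 lower and Myl2 higher), where 5.60% of genes did. None of the 9 passed the adjusted threshold there. With all muscles 1 of the 9 had an unadjusted p under 0.05, where 1.60% of genes did. Yap-shRNA 2 had the lowest CPM of the 6 muscles for 7 of the 9 genes, and for 6 of 9 when scaled by library totals alone.

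**Figure D2:**
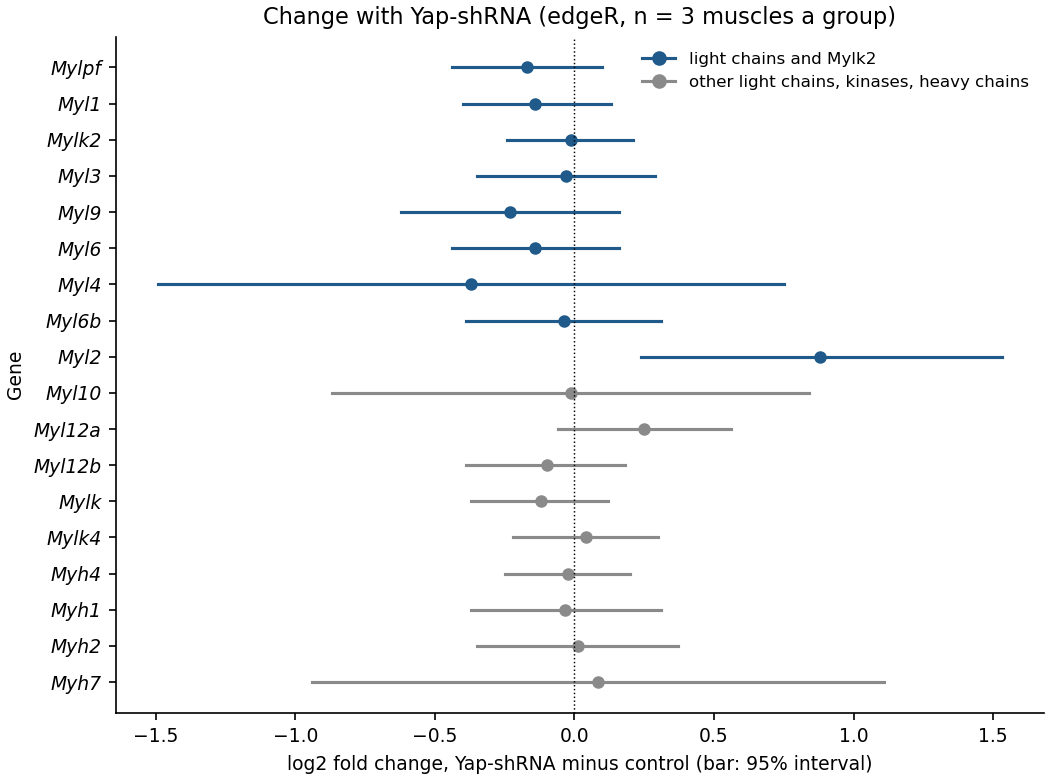
Log2 fold change of the 9 genes (blue) and of related light chains, kinases and heavy chains (grey), Yap-shRNA minus control, with the 95% interval of edgeR's quasi-likelihood fit (3 muscles a group). The interval of Myl2, from 0.24 to 1.53, lies above 0 before adjustment over all genes, and the other intervals drawn include 0.

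Mylpf (ENSMUSG00000030672) encodes the fast regulatory light chain. The gene lies on the plus strand of chromosome 7 of GRCm38, from 127208890 to 127214298, and its principal transcript has 7 exons and 766 bases. It had the highest RPKM of the light chains in every muscle and held 113555 to 150287 reads. Its level was 11698, 11738 and 12092 CPM in control muscles and 10826, 8719 and 11956 CPM after Yap-shRNA. The control values lay close together, while the Yap-shRNA values were spread, with Yap-shRNA 3 inside the control range and Yap-shRNA 2 the lowest. The means were 11843 ± 217.0 and 10500 ± 1643 CPM (SD, n = 3), or 88.7% of control. Its log2 fold change was -0.17 (SE 0.12) with a 95% interval from -0.44 to 0.10, so that changes between 0.735-fold and 1.07-fold could not be told from one another at this depth and number of muscles. Without Yap-shRNA 2 the log2 fold change was -0.056, and without control 1 and Yap-shRNA 3 it was -0.29 (adjusted p = 0.879).

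Myl2 (ENSMUSG00000013936) encodes the regulatory light chain of slow fibres and the heart ventricle. Its locus is on the plus strand of chromosome 5, from 122100951 to 122113472, and its principal transcript has 8 exons and 889 bases. The 6 libraries held 213 of its reads in all: 26, 33 and 15 in control muscles and 39, 50 and 50 after Yap-shRNA. After scaling these were 2.02, 2.76 and 1.23 CPM against 3.27, 3.84 and 3.99 CPM. All 3 Yap-shRNA muscles were above all 3 control muscles, which was the case for 334 of 13118 genes (2.55%). Myl2 was the 1 member of the 9 whose groups did not overlap in either direction, against 5.28% of genes. The means were 2.00 ± 0.764 and 3.70 ± 0.378 CPM (SD, n = 3), or 185% of control. Its log2 fold change was 0.88 (SE 0.29), the 95% interval covered 1.18-fold to 2.89-fold, and the unadjusted p was 0.0126, while the adjusted p was 1.00. Of all genes tested, 0.884% were higher in Yap-shRNA muscles at an unadjusted p under 0.05, and 0.717% were lower, where no member stood.

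The log2 fold change of Myl2 stayed between 0.63 and 1.18 when any 1 muscle was left out, and was 0.84 without control 1 and Yap-shRNA 3 (adjusted p = 0.879). Its unadjusted p lay between 0.0034 and 0.05 over all settings tried, and its adjusted p between 0.69 and 1. Myl2 overlaps Ccdc63 on the opposite strand by 60 exonic bases, and no source used here states whether strand was counted. Of the 6 cardiac muscle markers, Myh6 was measured at 1.15 to 3.85 CPM. The other 5 (Myl7, Nppa, Nppb, Tnni3 and Mybpc3) had no row among the genes counted.

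The share of Myl2 in the sum of Myl2 and Mylpf does not depend on the scaling between libraries. Per length it was 0.0149%, 0.0202% and 0.0088% in control muscles and 0.0260%, 0.0379% and 0.0287% after Yap-shRNA. The groups did not overlap, and the share in Yap-shRNA muscles was higher by 0.0163 percentage points (0.0146% ± 0.00574 against 0.0309% ± 0.00623, SD, n = 3; two-sided exact permutation test, p = 0.1, below which 3 against 3 cannot go). Over the 5 shares and ratios tested in this way the adjusted p was 0.5. The share uses the same Myl2 reads as the levels above, so it is not a separate observation. The low Mylpf of Yap-shRNA 2 entered its highest value, and without that muscle the difference was 0.0127 percentage points. By reads alone, the Wilson 95% interval of the share was 0.0167 to 0.033% in control 2, the highest control muscle, and 0.0221 to 0.0413% in Yap-shRNA 1, the lowest of its group. These intervals overlapped, and they cover counting error only.

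Myl3 (ENSMUSG00000059741) encodes the essential light chain of the same slow fibres. Its place is on the plus strand of chromosome 9, from 110741861 to 110769798, and its principal transcript has 7 exons and 937 bases. Its level was 50.8, 58.3 and 61.0 CPM in control muscles and 50.9, 48.0 and 67.7 CPM after Yap-shRNA. The groups overlapped, with a log2 fold change of -0.029 (SE 0.14) and a 95% interval of 0.787-fold to 1.22-fold. Without control 1 and Yap-shRNA 3 it was -0.27 (adjusted p = 0.879), and without Yap-shRNA 2 it was 0.066. The share of Myl3 in the sum of Myl3 and Myl1, per length, was 0.8065%, 0.8022% and 0.857% in control muscles and 0.814%, 0.8852% and 0.9495% after Yap-shRNA. The groups overlapped, with a difference of 0.061 percentage points (two-sided exact permutation test, p = 0.2, adjusted p over the 5 measures 0.5). Myl3 shares 95 exonic bases with Pth1r on the opposite strand.

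The slow myosin heavy chain Myh7, to which Myl2 and Myl3 bind in slow fibres, was also rare. Its level was 1.56, 1.92 and 1.56 CPM in control muscles and 3.10, 0.691 and 1.59 CPM after Yap-shRNA. The highest and the lowest value both lay in the Yap-shRNA group, and the log2 fold change was 0.085 (SE 0.46) and by limma-voom -0.16. The share of Myh7 in the adult heavy chains Myh7, Myh1, Myh2 and Myh4 differed by 0.0004 percentage points between groups (two-sided exact permutation test, p = 0.9). Of the 50-base words of the Myh7 transcript, 28.2% also occur in 7 other genes, Myh1 and Myh4 among them, so its reads could have been split or dropped. Over the 6 muscles Myl2 and Myh7 had a Pearson r of -0.12 on log2 CPM, as did Myl2 and Myl3. These are descriptions over 6 libraries, and Myl2 and Myh7 carried few reads.

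**Figure D3:**
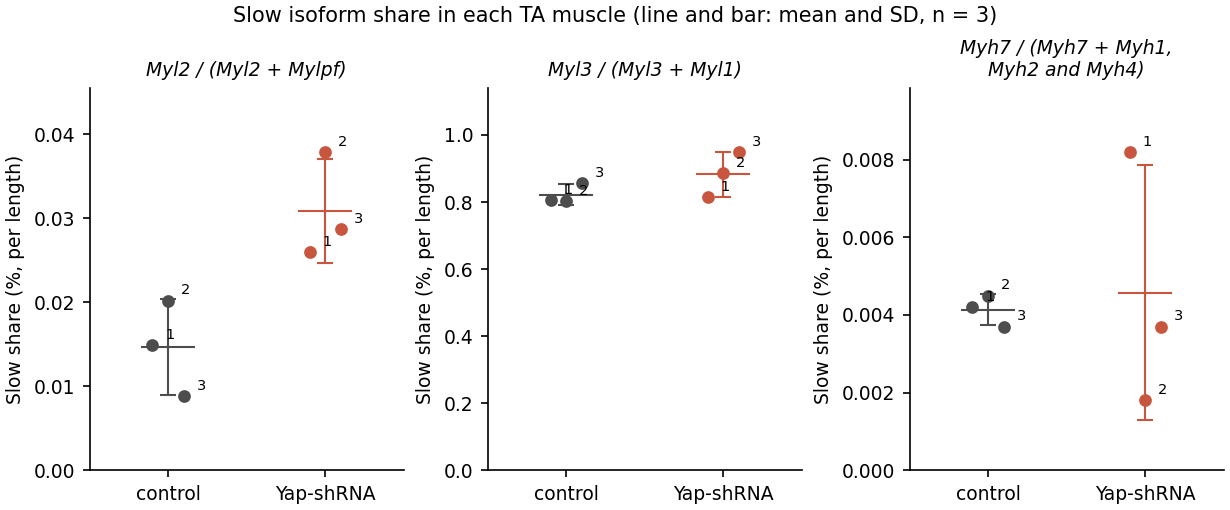
Slow isoform share in every TA muscle, in percent of the named genes per length: Myl2 with Mylpf, Myl3 with Myl1, and Myh7 with the fast heavy chains. Points are muscles with their replicate number, and the line and bar are the mean and SD of 3 muscles. The Myl2 share was 0.0088 to 0.0202% in control and 0.0260 to 0.0379% after Yap-shRNA, whereas the groups overlapped for Myl3 and Myh7.

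Myl1 (ENSMUSG00000061816) encodes the fast essential light chains, a long and a short form made from alternative promoters and counted here as a single gene. The annotation puts it on the minus strand of chromosome 1, from 66924295 to 66945404, and its principal transcript has 7 exons and 803 bases. Its level was 5357, 6176 and 6044 CPM in control muscles and 5317, 4605 and 6052 CPM after Yap-shRNA. The lowest value was again that of Yap-shRNA 2, and the groups overlapped. The means were 5859 ± 439.5 and 5325 ± 723.7 CPM (SD, n = 3), or 90.9% of control. By edgeR the log2 fold change was -0.14 (SE 0.12) with a 95% interval of 0.755-fold to 1.09-fold. Without Yap-shRNA 2 it was -0.044, and without control 1 and Yap-shRNA 3 it was -0.30 (adjusted p = 0.879). Of the 50-base words of its transcript, 32.1% also occur in the pseudogene Mylf-ps, so reads could have been split or dropped.

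Mylpf and Myl1 sit on the same fast heavy chains. Per length, their ratio was 2.289, 1.993 and 2.097 in control muscles and 2.134, 1.985 and 2.071 after Yap-shRNA. The ratio was 2.126 ± 0.15 in control and 2.063 ± 0.075 after Yap-shRNA (SD, n = 3), a difference of -0.063 (two-sided exact permutation test, p = 0.6). Over the 6 muscles Mylpf and Myl1 had a Pearson r of 0.91 on log2 CPM. The same description gave 0.89 for Mylpf with skeletal actin Acta1, 0.75 with Myh1 and 0.25 with Myh4, the heavy chain of the fastest fibres. Myh4 itself was at 33457 ± 2841 CPM in control and 32900 ± 2381 CPM after Yap-shRNA (SD, n = 3), with a log2 fold change of -0.024 and a 95% interval from -0.25 to 0.20.

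Myl4 (ENSMUSG00000061086), the essential chain of embryonic muscle and the heart atrium, varied most among the 9 genes. The gene is annotated on the plus strand of chromosome 11, from 104550663 to 104595753, and its principal transcript has 8 exons and 943 bases. Its level was 29.8, 12.2 and 9.93 CPM in control muscles and 12.0, 5.53 and 22.7 CPM after Yap-shRNA. The high muscles were control 1 and Yap-shRNA 3, 1 in each group, and the highest was 5.39-fold above the lowest. The coefficient of variation over the 6 muscles was 59.0%, against 6.18% for Mylk2 and 11.5% for Mylpf. The fitted log2 fold change was -0.37 (SE 0.50) with a 95% interval of 0.355-fold to 1.68-fold. It was 0.28 without control 1, -0.99 without Yap-shRNA 3 and -0.34 without both (adjusted p = 0.916).

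Myh3 and Myh8, from the list of 10 genes of developing or regenerating fibres, were high in the same muscles as Myl4. Actc1 of that list, given further below, was not, and the rest of the list is not described gene by gene. Myh3, the embryonic heavy chain, was at 13.6, 2.84 and 3.04 CPM in control muscles and 3.44, 1.15 and 16.9 CPM after Yap-shRNA. Myh8, the perinatal heavy chain, was at 19.9, 7.86 and 6.40 CPM and at 7.13, 2.53 and 13.2 CPM. Both, like Myl4, were highest in control 1 and Yap-shRNA 3 and lowest in Yap-shRNA 2. The Pearson r with Myl4 on log2 CPM was 0.99 for Myh8, 0.96 for Myh3 and 0.97 for Tnni1, the slow troponin I. It was 0.91 for the tendon genes Tnmd and Fmod. The tendon marker sum was 639.3, 173.7 and 126.1 CPM in control muscles and 169.0, 144.7 and 529.3 CPM after Yap-shRNA, and its part in the Myl4 values was not tested.

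**Figure D4:**
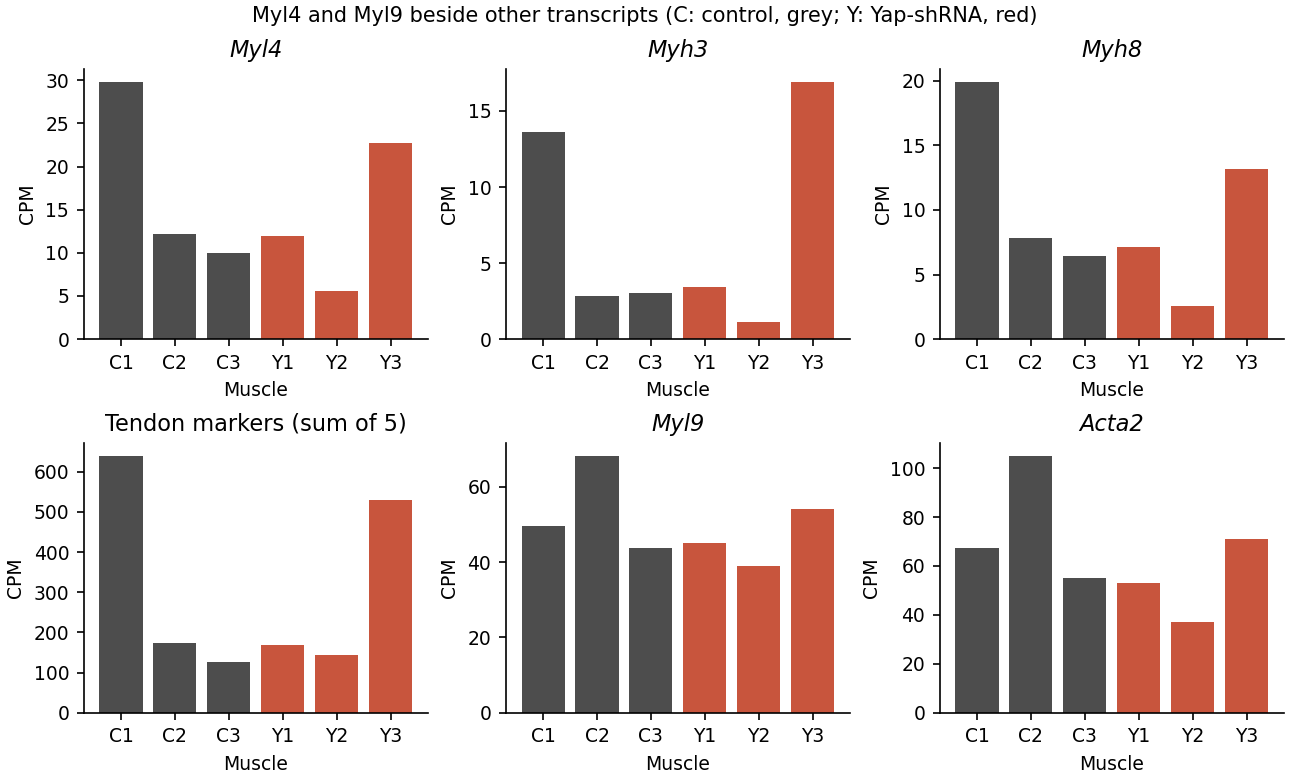
CPM of Myl4, Myh3, Myh8, the summed tendon markers, Myl9 and Acta2 in each muscle (C1 to C3 control, grey; Y1 to Y3 Yap-shRNA, red). Myl4, Myh3, Myh8 and the tendon markers are highest in control 1 and Yap-shRNA 3, whereas Myl9 and Acta2 are highest in control 2 and lowest in Yap-shRNA 2.

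Myl9 (ENSMUSG00000067818) is the regulatory light chain of smooth muscle, which whole muscle holds in its vessels. It is annotated on the plus strand of chromosome 2, from 156775420 to 156781658, and its principal transcript has 4 exons and 1128 bases. Its level was 49.7, 68.2 and 43.7 CPM in control muscles and 45.0, 38.9 and 54.1 CPM after Yap-shRNA. The groups overlapped, with control 2 the highest and Yap-shRNA 2 the lowest. The log2 fold change was -0.23 (SE 0.18) with a 95% interval of 0.65-fold to 1.12-fold. Without control 2 it was -0.024, and without control 1 and Yap-shRNA 3 it was -0.42 (adjusted p = 0.881).

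Acta2, the actin of smooth muscle, was at 67.3, 105.0 and 55.1 CPM in control muscles and 53.2, 37.3 and 71.1 CPM after Yap-shRNA. Its order over the muscles was close to that of Myl9, with a Pearson r of 0.98 on log2 CPM. The same value was 0.95 for Myh11, the smooth muscle heavy chain, and 0.93 for Tagln. The 11 smooth muscle and pericyte markers had a summed level between 783.2 and 888.5 CPM in control muscles, against 712.7 to 819.5 CPM after Yap-shRNA. Of these 11, 9 had a log2 fold change below 0, where 51.0% of all genes tested did. At an unadjusted p under 0.05 there were 0, against 1.60% of genes, and the median log2 fold change was -0.124. The median was -0.02 without control 2 and -0.287 without control 1 and Yap-shRNA 3. In bulk muscle, fewer cells of a type and less RNA per cell cannot be told apart, and the part of these cells in the Myl9 values was not tested.

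Myl6 (ENSMUSG00000090841) and Myl6b (ENSMUSG00000039824), essential chains that non-muscle cells also use, are neighbours on the minus strand of chromosome 10, with 11 bases between them. Myl6 extends from 128490860 to 128494145 and Myl6b from 128494157 to 128498685. Myl6 was at 17.2, 23.4 and 18.6 CPM in control muscles and 16.9, 18.2 and 18.5 CPM after Yap-shRNA, with a log2 fold change of -0.14 (SE 0.14). Without control 2, the highest muscle, it was -0.002, and without control 1 and Yap-shRNA 3 it was -0.26 (adjusted p = 0.905). The Myl6 values are uncertain, because 53.2% of the 50-base words of its transcript occur in transcripts of 5 other genes. Of these copies, Gm10080 held 60 to 84 reads in a library and Gm8894 held 7 to 22, beside 202 to 280 reads of Myl6.

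Myl6b was at 9.89, 8.61 and 9.03 CPM in control muscles and 10.3, 7.99 and 8.53 CPM after Yap-shRNA. Its log2 fold change was -0.038 (SE 0.16) with a 95% interval from -0.39 to 0.31, and it was 0.051 without control 1 and Yap-shRNA 3 (adjusted p = 0.983). Only 0.921% of the words of Myl6b were shared with other genes. For both genes the groups overlapped.

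Mylk2 (ENSMUSG00000027470), the calmodulin-dependent kinase of the skeletal regulatory light chain, was the steadiest of the 9 genes. The gene lies on the plus strand of chromosome 2, from 152911352 to 152923068, and its transcript has 12 exons and 2951 bases. It held 11868 to 13628 reads in a library. Its level was 1055, 992.3 and 1118 CPM in control muscles and 1121, 960.5 and 1054 CPM after Yap-shRNA. The 2 groups spanned nearly the same range, with means of 1055 ± 63.0 and 1045 ± 80.5 CPM (SD, n = 3), or 99.0% of control. By edgeR the log2 fold change was -0.014 (SE 0.10), and the 95% interval reached from 0.848-fold to 1.16-fold. Without control 1 and Yap-shRNA 3 it was -0.02 (adjusted p = 0.989).

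Set against its substrate, the log2 ratio of Mylk2 to Mylpf was -3.471, -3.564 and -3.435 in control muscles and -3.272, -3.182 and -3.504 after Yap-shRNA, on the CPM scale. The difference between groups was 0.171 log2 units, and the groups overlapped (two-sided exact permutation test, p = 0.3, adjusted p over the 5 measures 0.5). The lower value of Mylpf in Yap-shRNA 2 entered this ratio, which differed by 0.102 without that muscle. Over the 6 muscles Mylk2 and Mylpf had a Pearson r of 0.58 on log2 CPM.

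Another kinase of striated muscle, Mylk4, was below Mylk2 per length but of the same order. It was at 239.6 RPKM in control and 246.6 RPKM after Yap-shRNA, against 357.5 and 354.1 RPKM for Mylk2. In CPM, Mylk4 was at 1414, 1128 and 1463 in control muscles and 1318, 1426 and 1378 after Yap-shRNA. These overlapped, with a log2 fold change of 0.042 (SE 0.12) and a 95% interval from -0.22 to 0.30. Mylk, the kinase of smooth muscle and non-muscle cells, was at 22.6 ± 1.55 CPM in control and 20.7 ± 1.61 CPM after Yap-shRNA (SD, n = 3), with a log2 fold change of -0.12 that ranged from -0.18 to -0.066 as muscles were left out in turn. Rock2, a kinase that acts on regulatory light chains and on their phosphatase, was at 85.4, 83.3 and 92.2 CPM in control muscles and at 77.2, 73.6 and 64.3 CPM after Yap-shRNA. Its groups lay apart, as did those of 2.73% of genes in the same direction, with a log2 fold change of -0.28 (SE 0.10), an unadjusted p of 0.0221 and an adjusted p of 1.00.

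The list of kinases and calmodulins held 9 genes, of which 8 were measured and Mylk3 had no row among the genes counted. Rock2 was the 1 gene of the 8 with an unadjusted p under 0.05 (1.60% of all genes). The median log2 fold change of the list was -0.026. Without Yap-shRNA 3 none of the 8 was under 0.05. The 9 genes of myosin phosphatase, which removes the phosphate that Mylk2 adds, had a median of -0.016, ranging from -0.47 for the inhibitor Ppp1r14a to 0.01 for Ppp1r12b. Of these, 0 had an unadjusted p under 0.05. Of the 9, 8 were below 0 (51.0% of all genes), and 3 of the 9 were without control 2.

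The light chains outside the 9 genes were as follows. Myl12a, a regulatory chain of non-muscle cells, was at 139.6, 142.3 and 128.2 CPM in control muscles and 195.0, 130.5 and 162.4 CPM after Yap-shRNA. The groups overlapped, with a log2 fold change of 0.25 (SE 0.14) and an unadjusted p of 0.106. It was 0.10 without Yap-shRNA 1 and 0.39 without Yap-shRNA 2. Its transcript shares 29.6% of its 50-base words with Myl12b and 2 other genes, so reads may have been split between them. The gene also shares 207 exonic bases with Myom1 of the thick filament list, on the opposite strand, and whether strand was counted is not known. Myl12b was at 17.1 ± 2.26 CPM in control and 15.9 ± 0.118 CPM after Yap-shRNA (SD, n = 3), and Myl10 was at 3.19 to 7.44 CPM and 3.22 to 8.47 CPM. Myl7, the regulatory chain of the heart atrium, had no row among the genes counted.

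The partners of the light chains in the thick filament were examined in the same way. Of 9 sarcomeric myosin heavy chains, 0 had an unadjusted p under 0.05, with a median log2 fold change of -0.024. The fast chains Myh1 and Myh2 were at -0.033 and 0.012. Of 9 measured thick filament proteins, 0 had an unadjusted p under 0.05, with a median of -0.081. All 11 genes of the fast fibre list had a log2 fold change below 0, the lowest being Tnnc2, the fast troponin C, at -0.26, with a median of -0.131 and 0 genes at an unadjusted p under 0.05, where 51.0% of all genes were below 0. Yap-shRNA 2 had the lowest sum of this list, at 126109 CPM, and without it 9 of 11 were below 0 with a median of -0.085. Without that muscle the medians of the heavy chains, the thick filament proteins and the slow fibre list were 0.094, 0.024 and 0.081. With all muscles, 6 of the 10 slow fibre genes were below 0. Casq2, the slow and cardiac calsequestrin, was the 1 gene of that list with an unadjusted p under 0.05 (1.60% of all genes). It was at 66.5, 78.8 and 70.0 CPM in control muscles and 48.1, 52.1 and 55.3 CPM after Yap-shRNA. Its groups lay apart, as did those of 2.73% of genes in the same direction. The log2 fold change was -0.47 (quasi-likelihood adjusted p = 1.00), in the direction opposite to Myl2.

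Of the 10 genes of developing or regenerating fibres, 4 had a log2 fold change below 0 (7 without Yap-shRNA 3), against 51.0% of all genes. The 1 gene with an unadjusted p under 0.05 (1.60% of all genes) was Actc1, the cardiac actin also made in immature fibres. It was at 374.4, 480.7 and 340.9 CPM in control muscles and 124.9, 254.8 and 161.1 CPM after Yap-shRNA. The groups did not overlap, as was so for 2.73% of genes in the same direction. The log2 fold change was -1.14 (SE 0.24), with an adjusted p of 1.00 by the quasi-likelihood test and 0.0106 by edgeR's likelihood ratio test. The Actc1 values did not follow the muscles high in Myl4, since Yap-shRNA 3, high in Myl4, was below all control muscles for Actc1.

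Finally, the genes whose pattern over the 6 muscles was most like that of a light chain were listed by Pearson r on log2 CPM among 7272 genes with a mean of at least 10 CPM. For Mylpf they were Smpx (0.984), Srl (0.984) and Gm1840 (0.983), and for Myl1 they were Tecr (0.998), Atraid (0.994) and Clock (0.966). For Myl2 they were Ddx56 (0.982), Acap3 (0.974) and Commd7 (0.973), and for Myl3 they were Pigk (0.988), Aars (0.984) and Hhatl (0.982). For Myl9 they were Gpatch11 (0.998), Sppl3 (0.982) and Acta2 (0.98), and for Mylk2 they were Scarb2 (0.991), Enpp2 (0.988) and Fhl3 (0.98). Smpx, a small striated muscle protein, was also on the thick filament list, and Acta2 was on the smooth muscle list. The values share 6 libraries and were the highest of 7272 genes, so they describe these muscles and carry no test.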

How the data were processed

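Muscles were injected with vector, and polyadenylated RNA of whole TA muscles was sequenced (TruSeq; bcl2fastq 2.20.0.422 and build GRCm38 per the labels). The authors deposited whole-number read counts for each gene, not normalised. The aligner, counter, annotation and strand setting are not given in the sources used here. All 6 columns were matched to a sample by name, and 0 were left unmapped.

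Library totals were 11987167 to 12710393 counts, and no gene had fewer than 60 counts over the 6 muscles. Libraries of a group differed by 7.616 to 21.443 times what sampling noise gives (chi-square over its degrees of freedom). After filterByExpr and TMM scaling, edgeR 4.0.16 was used for the quasi-likelihood test (no term but group, Benjamini-Hochberg over all genes tested, threshold 0.05) in R 4.3.3. The biological coefficient of variation was 15.1%. The SE is the log2 fold change over the root of the test statistic. Shares and ratios were compared by exact permutation tests. RPKM was computed from CPM and the principal transcript in GENCODE release M21, and uniqueness of sequence from 50-base words of its transcripts. On simulated counts for 13226 genes the test recovered 56 of 92 genes changed 2-fold and 95 of 97 changed 4-fold, with 20 false calls. In the muscles themselves the same test called 0 of 13118 genes. It gave Yap1, the targeted gene, an adjusted p of 0.32 at a log2 fold change of -1.1. The recovery counts therefore describe the simulated libraries, and whether they carry over to these muscles was not tested.

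The members and gene lists were chosen with earlier results of these data known. Named genes are the 9 members, Yap1, genes of a list where it is described (1 gene is not reported here), and the 3 genes most correlated with each of 6 members. Alternatives were DESeq2 1.42.0, the likelihood ratio test, limma-voom (limma 3.58.1), other scalings and filters, a replicate block, leaving out muscles and other lengths.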

Additional observations from a re-analysis of the deposited data

How the results depend on the processing

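Over 99 combinations of a member and a setting other than leaving out 1 muscle, 98 kept the direction and side of the threshold, and Myl6b turned to 0.051 without control 1 and Yap-shRNA 3 together. That setting and the use of all annotated exons as length were chosen after seeing the data. The count of genes at an adjusted p under 0.05 went from 0 to 5 by DESeq2, 5 by the likelihood ratio test, 4 without those muscles (Ankrd1, Mir155hg, Rrad and Yap1), and 0 to 1 when each muscle was left out (Rrad without control 1, Mir155hg without Yap-shRNA 3); limma-voom and the replicate block gave 0. The unadjusted count was 210, and 933 without control 1. The Myl2 share difference was 0.0103 with all exons as length. Same-numbered muscles had correlations of -0.0669, 0.2145 and -0.337 in their deviations from the group means. With 3 muscles a group these values cannot settle whether a number marks an animal. Under the replicate block the Myl2 share difference was 0.0163 (exact sign-flip test, p = 0.25, the smallest possible). In that setting Yap1 and Actc1 each had an adjusted p of 0.0709 (edgeR quasi-likelihood test), and Myh7 and Myh3 turned to -0.024 and -0.18. Myl10 turned to 0.0066 with library totals and 0.0011 without the 50 most abundant genes, Myh7 and Myh3 to -0.16 and -0.30 with limma-voom, and Myh2 and Myh3 to -0.11 and -0.37 without both muscles. The cause of these changes was not tested.

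Leaving out each muscle moved the differences in the Myl2 share from 0.0127 to 0.0191, the Myl3 share from 0.0277 to 0.0955 and the Myh7 share from -0.0014 to 0.0018 percentage points, the Mylpf to Myl1 ratio from -0.13 to 0.018 and the kinase ratio from 0.102 to 0.263. Log2 fold changes ranged for Myl3 from -0.20 to 0.066, Myl4 -0.99 to 0.28, Myl6b -0.15 to 0.038, Mylk2 -0.066 to 0.043, Myl10 -0.47 to 0.26, Myl12a 0.10 to 0.39, Myl12b -0.17 to 0.0082, Mylk -0.18 to -0.066, Mylk4 -0.066 to 0.11, Myh4 -0.092 to 0.028, Myh1 -0.12 to 0.11, Myh2 -0.13 to 0.23, Myh7 -0.55 to 0.48, Myh3 -1.52 to 1.28, Myh8 -1.25 to 0.10, Myh11 -0.37 to 0.038 and Tnni1 -1.20 to 0.12. With 3 muscles a group and 213 reads in all, small changes of Myl2 were not detectable.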
